A study of Mus musculus with 18 samples.

Results

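A group of 10 genes of ependymal cells and motile cilia was read in RNA-seq libraries of mouse thalamus: Foxj1, Ccdc153, Tmem212, Rarres2, Rsph1, Dynlrb2, Spag17, Hydin, Tekt1 and Dnah6. They were taken by symbol from a count table of 50559 genes, in which all 10 were present. All 10 also passed the filter on low counts, which kept 18452 genes. The 18 libraries came from wild-type mice in 3 groups of 6: control, given saline; model, given a treatment labelled Coll IV; and intervene, given Coll IV together with remodelin. Remodelin inhibits NAT10, an enzyme that acetylates RNA, and the series was set up to follow its effect after bleeding in the thalamus. The labels do not expand Coll IV, do not give age, sex or time after treatment, and do not say that each library is a separate animal. The tests therefore measure spread between libraries that may be technical replicates.

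Ependymal cells are a ciliated epithelium that lines the brain ventricles, and the beating of their motile cilia moves cerebrospinal fluid. The thalamus borders the third ventricle, so a dissection can carry a strip of this lining together with the neighbouring choroid plexus. Motile ciliogenesis is driven by FOXJ1 and the RFX factors, which turn on genes for the axoneme, the microtubule core of the cilium with its dynein arms, radial spokes and central apparatus. In a bulk library a lower level of these genes can mean fewer ependymal cells or less RNA per cell, and these cannot be told apart.

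Libraries numbered 4 to 6 stood apart from those numbered 1 to 3, most clearly in control. The labels do not mention this division, which came to notice only in the counts. Likeness of 2 libraries was read as chi-square per degree of freedom over genes with at least 20 counts, lower being more alike. Model replicate 1 was nearer to model replicate 5 (50.9) than to model replicates 2 and 3 (75.9 and 58.9). Intervene replicate 4 was nearer to intervene replicate 3 (39.4) than to intervene replicates 5 and 6 (67.7 and 77.8). Each of the other libraries lay nearest, within its group, to one of its own set. Total counts ran from 28481225 to 118461420, with control replicate 1 the deepest, control replicate 5 at 56878946 and the other 16 at 36361681 or fewer. The defining markers of the labelled tissue differed along the same line: 8 thalamic neuron genes summed to 385 to 416 CPM (counts relative to the library total, scaled by edgeR's TMM factors) in controls 1 to 3 and to 53.4 to 54.9 in controls 4 to 6. In model that sum was 241 to 441 in libraries 1 to 3 and 71.5 to 108 in libraries 4 to 6, and in intervene 324 to 342 and 202 to 288. The sum of 8 cortical and hippocampal neuron genes went the other way, from 151 to 840 CPM in controls 1 to 3 and from 2067 to 2192 in controls 4 to 6. All results are therefore given over all 18 libraries and also within each set of replicate numbers. As the sets were noticed in the data, p-values within a set are not independent of that choice.

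The 10 genes shared this division. In control, all 10 were lower in each of libraries 4 to 6 than in any of libraries 1 to 3, where 26.6% of the 18452 genes tested showed such a gap. In model, all 10 were again lower without overlap, against 19.4% of genes. In intervene, none of the 10 was lower without overlap, against 15.8% of genes. The ratio of the mean level in libraries 1 to 3 to that in libraries 4 to 6 ran from 3.55 for Dynlrb2 to 14.0 for Tmem212 in control and from 1.84 for Rarres2 to 6.14 for Spag17 in model. In intervene it ran from 0.606 for Dynlrb2 to 1.03 for Tmem212. Because the sets were noticed in the data, these levels are a description and carry no test. Control replicate 4 was the lowest of the 18 libraries in all 10 genes, and intervene replicate 2 was the highest in 7 of them.

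**Figure D1:**
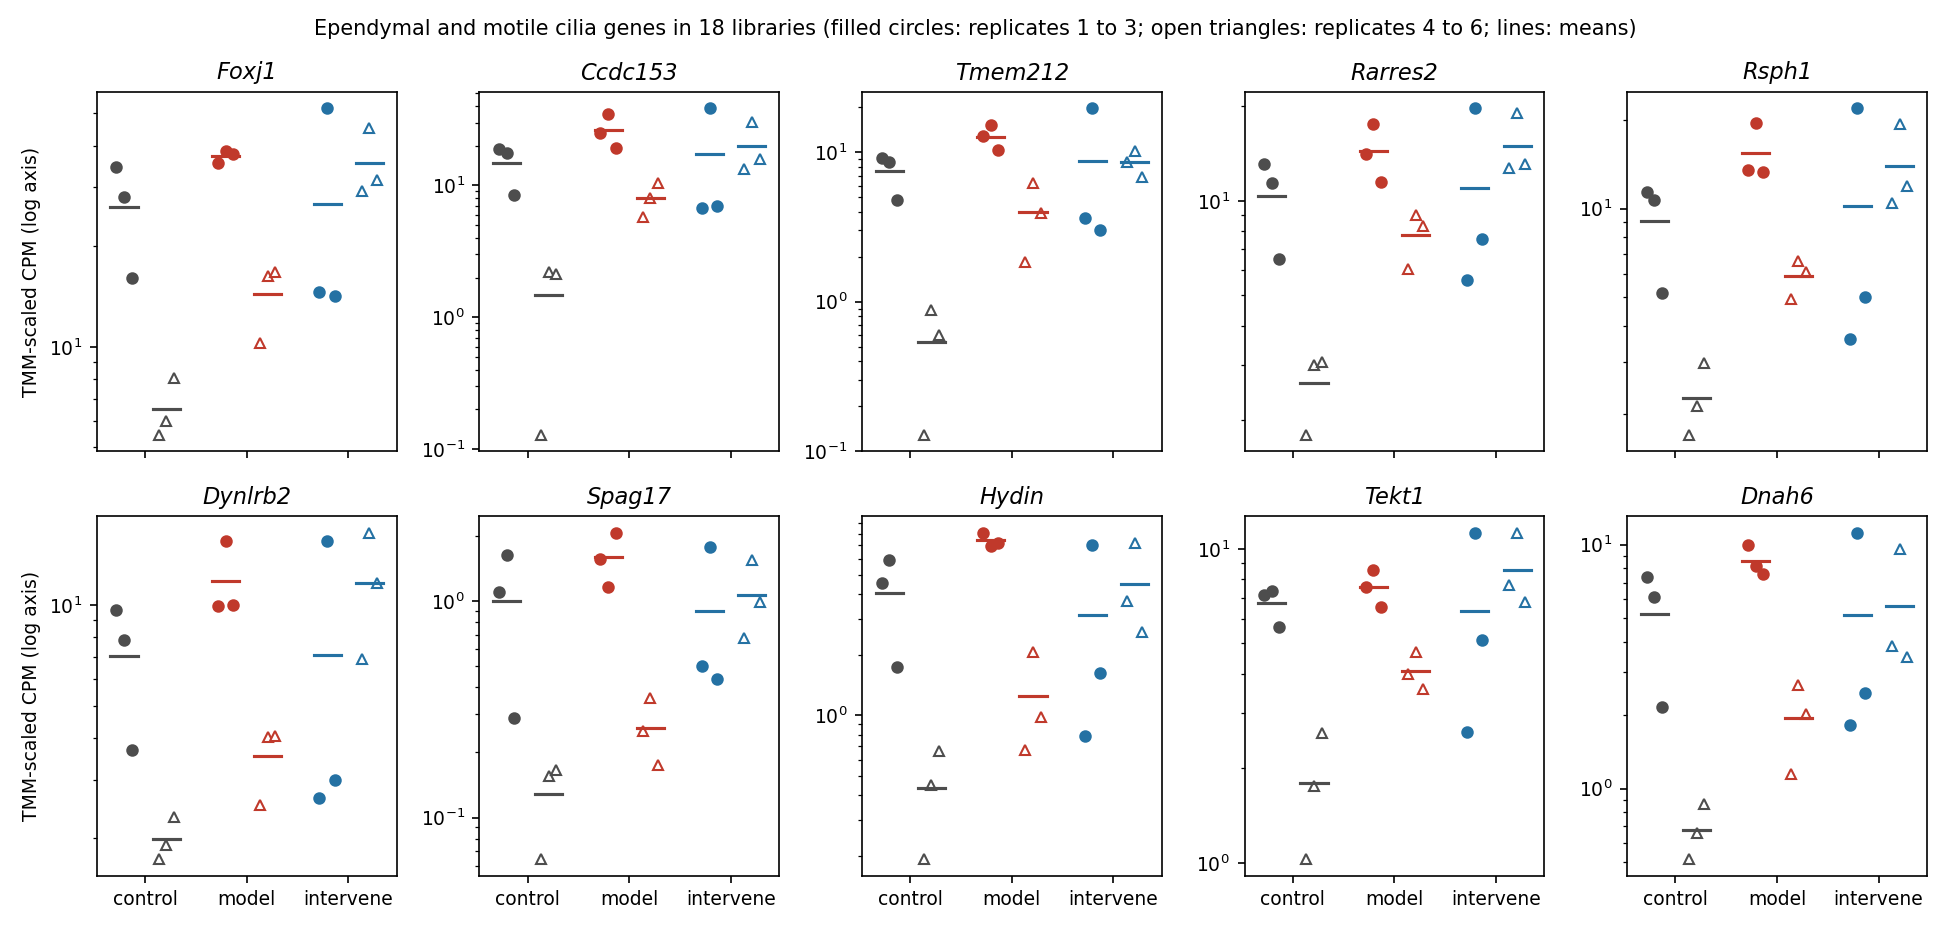
Level of each of the 10 genes in the 18 libraries, as TMM-scaled CPM on log axes that differ between panels, with filled circles for replicates 1 to 3, open triangles for replicates 4 to 6 and lines for the means of 3 libraries. In control and model the triangles lie below the circles in every panel. In intervene they do not, and there replicate 2, the highest circle, stands above replicates 1 and 3.

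Per length, 7 genes lay well above the other 3. In FPKM, the count per gene length and library total as the authors deposited it, the median over 18 libraries was 5.88 for Rarres2, 5.44 for Dynlrb2, 5.25 for Ccdc153, 4.25 for Tmem212, 4.09 for Foxj1 and 3.98 for Rsph1. The neighbours among these are not ordered beyond their spread: Rarres2 was above Dynlrb2 in only 7 of 18 libraries and Tmem212 above Foxj1 in only 8, although Ccdc153 was above Tmem212 in 16. Tekt1 followed at 1.76 FPKM, below Rsph1 in all 18 libraries. The genes for very large proteins were lowest, with median FPKM of 0.106 for Dnah6, 0.0695 for Hydin and 0.0367 for Spag17, and their order held in 17 or 18 libraries. Their gene lengths in that table, 27596, 32268 and 15884 bases, put them in a different range from Dynlrb2 at 1030 bases. FPKM depends on the length used. In GENCODE vM21 the exon bases of these genes came to 13247, 18037 and 8489. Those of Rarres2 came to 2656, where the length behind its FPKM was 1774. Spag17 was also the thinnest in raw reads, with as few as 2 counts in control replicate 4, so its values are the least precise per library. In the GENCODE vM21 annotation 33.6% of the exon bases of Rarres2 overlap Lrrc61 on the opposite strand, 9.66% of those of Spag17 overlap Wdr3 and 6.08% overlap Spag17os. The sources used here give no strand setting for the counting, so reads in these stretches cannot be assigned. For Hydin and Dnah6 the overlap was with Gm26832 and Gm20560, at 1.31% and 1.26% of exon bases.

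Foxj1 encodes the forkhead transcription factor that commits a cell to motile cilia. Its level was 34.6, 28.1 and 16.0 CPM in controls 1 to 3 and 5.45, 5.99 and 8.04 CPM in controls 4 to 6. In model it was 35.5, 38.4 and 37.8 CPM in libraries 1 to 3 and 10.3, 16.3 and 16.7 CPM in libraries 4 to 6. In intervene it was 14.6, 51.7 and 14.2 CPM in libraries 1 to 3 and 29.3, 45.2 and 31.6 CPM in libraries 4 to 6. Within libraries 4 to 6 the groups thus stood in the order control, model, intervene with no overlap, as they did in all 10 genes and in 3.74% of the genes tested. Within libraries 1 to 3 the model lay just above control, and the intervene libraries spanned both, with replicate 2 alone at the top. The rise from control to intervene within libraries 4 to 6 was 2.45 ± 0.46 on the log2 scale (SE; edgeR adjusted p = 0.00189).

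Ccdc153 encodes a coiled-coil protein, and Tmem212 a membrane protein; both are used as markers of ependymal cells. Ccdc153 measured 18.8, 17.6 and 8.46 CPM in controls 1 to 3 and 0.128, 2.20 and 2.13 CPM in controls 4 to 6. Tmem212 measured 9.15, 8.60 and 4.82 CPM in controls 1 to 3 and 0.128, 0.885 and 0.598 CPM in controls 4 to 6. Both were close to absent in control replicate 4, at 4 counts each, where Foxj1 still had 170 counts. In model, Ccdc153 was at 24.9, 35.0 and 19.4 CPM in libraries 1 to 3 and 5.72, 7.97 and 10.5 CPM in libraries 4 to 6. In intervene it was at 6.78, 38.5 and 7.02 CPM, then 13.4, 30.2 and 15.8 CPM. These were the steepest of the 10 from control to intervene within libraries 4 to 6: Ccdc153 rose by 3.69 ± 0.80 (adjusted p = 0.0052) and Tmem212 by 3.90 ± 0.76 (adjusted p = 0.00259) in log2, and without control replicate 5 the Tmem212 value was 4.56.

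Rarres2 encodes chemerin, a secreted attractant of immune cells, and is not a part of the ciliary machinery. Its level in libraries 4 to 6 was 1.79, 3.0 and 3.06 CPM in control, 6.06, 9.0 and 8.33 CPM in model and 12.7, 19 and 13.1 CPM in intervene. In libraries 1 to 3 it ranged from 6.51 to 13.1 CPM in control, from 11.5 to 17.5 in model and from 5.60 to 19.7 in intervene. It followed the ciliary genes in each group, and its rise from control to intervene in libraries 4 to 6, 2.50 ± 0.42 in log2, had the lowest adjusted p of the 10 (0.000892).

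The radial spokes and the central apparatus together set the waveform of a motile cilium. Rsph1, a protein of the radial spoke head, ranged in libraries 4 to 6 from 1.70 to 2.99 CPM in control, from 4.91 to 6.63 in model and from 10.5 to 19.4 in intervene. Hydin, a giant protein of the central apparatus whose loss causes hydrocephalus in mice, measured 0.192, 0.451 and 0.664 CPM in controls 4 to 6 and 4.52, 5.94 and 1.73 in controls 1 to 3. In model, Hydin was at 8.07, 6.93 and 7.20 CPM in libraries 1 to 3 and 0.670, 2.07 and 0.980 in libraries 4 to 6. The ratio of the mean of libraries 1 to 3 to that of libraries 4 to 6 was 9.33 in control and 5.96 in model, among the widest of the 10 genes in both. In intervene it was at 0.785, 7.05 and 1.62 CPM, then 3.69, 7.15 and 2.60 CPM. Spag17, another central apparatus protein, ranged from 0.0641 to 0.166 CPM in controls 4 to 6 and from 0.676 to 1.54 in intervene 4 to 6. From control to intervene within libraries 4 to 6, Hydin rose by 3.35 ± 0.78, Spag17 by 2.99 ± 0.68 and Rsph1 by 2.62 ± 0.57 in log2 (edgeR adjusted p of 0.0066, 0.00475 and 0.00484).

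Dynein arms power the beat, and tektins form filaments inside the doublet microtubules. Dnah6 encodes a heavy chain of the inner dynein arms, Dynlrb2 a roadblock light chain of ciliary dynein, and Tekt1 a tektin. Dnah6 ranged in libraries 4 to 6 from 0.513 to 0.864 CPM in control, from 1.14 to 2.67 in model and from 3.45 to 9.56 in intervene. Dynlrb2 measured 1.73, 1.91 and 2.33 CPM in controls 4 to 6, 2.51, 4.03 and 4.06 CPM in model and 6.90, 16.5 and 11.6 CPM in intervene. Tekt1 measured 1.03, 1.75 and 2.59 CPM in controls 4 to 6, 3.99, 4.68 and 3.57 CPM in model and 7.68, 11.2 and 6.77 CPM in intervene. From control to intervene the log2 rise was 3.05 ± 0.70 for Dnah6, 2.55 ± 0.61 for Dynlrb2 and 2.26 ± 0.42 for Tekt1, the smallest of the 10 (edgeR adjusted p of 0.00611, 0.00776 and 0.00138). Without intervene replicate 5 the Dnah6 value was 2.43.

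Since the 10 genes moved together, the stretches before their starts were read for motifs of the factors that drive motile ciliogenesis. RefSeq windows of the mouse build GRCm38.p6, from 250 bases before to 50 bases after a start, were matched for 7 of the 10 genes, with 2 windows for Tekt1, while Foxj1, Rarres2 and Rsph1 had none. The letters GTTGCCA, one arm of the X-box bound by RFX factors, were searched on both strands and lay in the windows of Hydin and Tekt1, against 4.38% of all 32851 windows. A narrow form of the whole X-box, written as GTTNCC, then 1 to 3 bases, then GGNAAC, was in no member's window and in 0.776% of all. The forkhead letters GTAAACA were in no member's window and in 3.65% of all. An inverted repeat of GTTGC, then 3 or 4 bases, then GCAAC, was added after the windows had been read. It was in the windows of Dynlrb2, Hydin and Dnah6, at positions -51, -21 and -36 from the start, and in 0.399% of all windows. The wider X-box consensus, which allows more letters and was also added later, matched Dynlrb2 and Hydin at these same positions and 2.13% of all windows. These are matches of letters, not measured binding sites. The inverted repeat and the wider consensus were added after the windows had been read, so their matches are a description and no test. The 4 windows that hold a match are printed 5′ to 3′ on the gene's strand, with the matched letters in capitals; in Hydin the X-box arm lies inside the inverted repeat. They are Dynlrb2 at chr8:116504765-116505064 on the plus strand, Hydin at chr8:110266727-110267026 on the plus strand, Dnah6 at chr6:73221582-73221881 on the minus strand and Tekt1 at chr11:72361833-72362132 on the minus strand.
Dynlrb2: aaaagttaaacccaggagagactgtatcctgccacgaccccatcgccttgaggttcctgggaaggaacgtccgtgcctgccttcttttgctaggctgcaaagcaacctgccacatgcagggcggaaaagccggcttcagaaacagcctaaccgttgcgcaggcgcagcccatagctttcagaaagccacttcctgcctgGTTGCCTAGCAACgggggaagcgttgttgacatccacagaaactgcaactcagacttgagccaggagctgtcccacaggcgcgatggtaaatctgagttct
Hydin: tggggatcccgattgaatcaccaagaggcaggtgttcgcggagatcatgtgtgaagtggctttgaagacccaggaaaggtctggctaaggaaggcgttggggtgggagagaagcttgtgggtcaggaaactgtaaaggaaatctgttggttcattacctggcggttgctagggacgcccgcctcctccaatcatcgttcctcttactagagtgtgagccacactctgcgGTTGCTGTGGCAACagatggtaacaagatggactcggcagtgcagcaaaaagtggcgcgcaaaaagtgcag
Dnah6: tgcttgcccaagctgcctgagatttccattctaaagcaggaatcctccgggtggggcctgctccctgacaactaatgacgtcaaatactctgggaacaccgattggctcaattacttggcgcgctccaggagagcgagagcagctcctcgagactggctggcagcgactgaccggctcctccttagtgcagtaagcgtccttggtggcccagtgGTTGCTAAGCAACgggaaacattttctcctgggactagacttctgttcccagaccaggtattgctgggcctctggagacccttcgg
Tekt1: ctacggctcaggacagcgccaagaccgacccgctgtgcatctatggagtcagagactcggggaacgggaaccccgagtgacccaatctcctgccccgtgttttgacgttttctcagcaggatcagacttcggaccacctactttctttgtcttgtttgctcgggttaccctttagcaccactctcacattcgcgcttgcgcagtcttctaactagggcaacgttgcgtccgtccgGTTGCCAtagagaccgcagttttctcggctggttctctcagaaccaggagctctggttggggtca

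Model was compared with control to ask what the Coll IV treatment alone did. Over all 18 libraries the 10 genes were each higher in model, by 0.45 (Tekt1) to 1.06 (Ccdc153) in log2 with a median of 0.79, where the median over all genes was 0.00. None passed the test: edgeR's adjusted p was 1 for all 10, none had an unadjusted p under 0.05, and neither DESeq2 nor limma-voom called any. No gene at all was called in that comparison, so the background was 0%, and 310 of 18452 genes (1.68%) had an unadjusted p under 0.05. Within libraries 4 to 6 the median was 1.44, from 0.83 for Dynlrb2 to 2.80 for Tmem212. There all 10 lay above control without overlap, against 9.96% of genes, and 7 had an unadjusted p under 0.05, as did 10.2% of all genes. The lowest adjusted p was 0.243, for Rarres2, so edgeR called none there either (0% of genes called). DESeq2 called Tmem212 and Rarres2, where it called 1.07% of genes higher, and edgeR fitted on libraries 4 to 6 alone called Rarres2, with 0.223% of genes. Within libraries 1 to 3 the median was 0.72 and 7 of 10 lay above control without overlap, against 5.67% of genes. Rarres2, Spag17 and Tekt1 overlapped, and none of the 10 was called by edgeR, DESeq2 or limma-voom or had an unadjusted p under 0.05.

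Intervene was compared with model to ask what remodelin added. Over all libraries the difference was small beside its error, with a median of 0.14 in log2, from -0.18 for Hydin to 0.35 for Tekt1, and 0 of 10 called by edgeR, DESeq2 or limma-voom (0% of genes by edgeR; 531 genes, 2.88%, and none of the 10 had an unadjusted p under 0.05). The sets gave opposite signs. Within libraries 4 to 6 all 10 were higher in intervene, by 0.94 (Rarres2) to 2.01 (Spag17) with a median of 1.30, and all 10 lay above model without overlap, against 14.5% of genes. Of the 10, 8 had an unadjusted p under 0.05, as did 23.3% of all genes, but the adjusted p ran from 0.0718 for Spag17 to 0.328 for Tmem212, so edgeR called 0 of 10, where it called 3.66% of all genes higher. DESeq2 called Dynlrb2 and Spag17, with 5.99% of genes. EdgeR fitted on libraries 4 to 6 alone called 8, all but Ccdc153 and Tmem212, with 5.38% of genes. Within libraries 1 to 3 all 10 were lower in intervene, by a median of -0.60, and none was called by edgeR, DESeq2 or limma-voom or had an unadjusted p under 0.05 (0% of genes by edgeR). That median rested on single libraries: it was -1.89 without intervene replicate 2 (from -2.61 to -0.96), -0.21 without intervene replicate 1, where Tekt1 was at 0.12, and -0.25 without intervene replicate 3, with none called. The test of the difference between the sets called 0 of 10 (adjusted p from 0.12 to 0.382, 0.276% of genes called positive), and 9 of 10 without intervene replicate 2, with 2.45% of genes. The sets were noticed in the data, so this test is not independent of them.

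Intervene was also compared with control, which shares its control libraries with the first comparison. Over all libraries each of the 10 was higher in intervene, by 0.75 (Hydin) to 1.17 (Ccdc153) with a median of 0.96 in log2, and none was called (edgeR adjusted p from 0.574 to 0.78; 0% of genes called; Rarres2 alone had an unadjusted p under 0.05, beside 8.41% of all genes). DESeq2 and limma-voom called none of the 10 either. Within libraries 4 to 6 all 10 rose, by 2.26 to 3.90 with a median of 2.80, and edgeR called 10 of 10 (adjusted p from 0.000892 to 0.00776), where 14.7% of all genes were called higher and 11.2% lower. The median over all genes was 0.00, and 21.6% of genes lay above control without overlap, as all 10 did. The count stayed at 10 under every alternative run, each left-out library included. The share of all genes called in those runs is not given here, so the counts have no background beside them. Within libraries 1 to 3 the differences were from -0.37 to 0.22, with 5 genes higher and 5 lower, and none was called by any of the 3 tools or had an unadjusted p under 0.05 (0% of genes by edgeR). These values rested on single libraries. Their median was -1.12 without intervene replicate 2 (from -1.76 to -0.66) and 0.37 without intervene replicate 1 (from 0.08 to 0.60). The sets were noticed in the data, so the tests within a set are not independent of that choice. Nor is a test of the difference between the sets. EdgeR put this difference at 2.34 (Tekt1) to 3.72 (Hydin) in log2, with adjusted p from 0.0103 to 0.0443. All 10 were called, where 9.54% of genes were called positive. That count was 3 without control replicate 4, 4 without intervene replicate 5, 5 without control replicate 2, control replicate 5 or intervene replicate 1, 6 without control replicate 1 or intervene replicate 3, 4 with no filter on low counts, and 8 with library totals in place of TMM scaling, where Rsph1 and Dynlrb2 were not called.

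**Figure D2:**
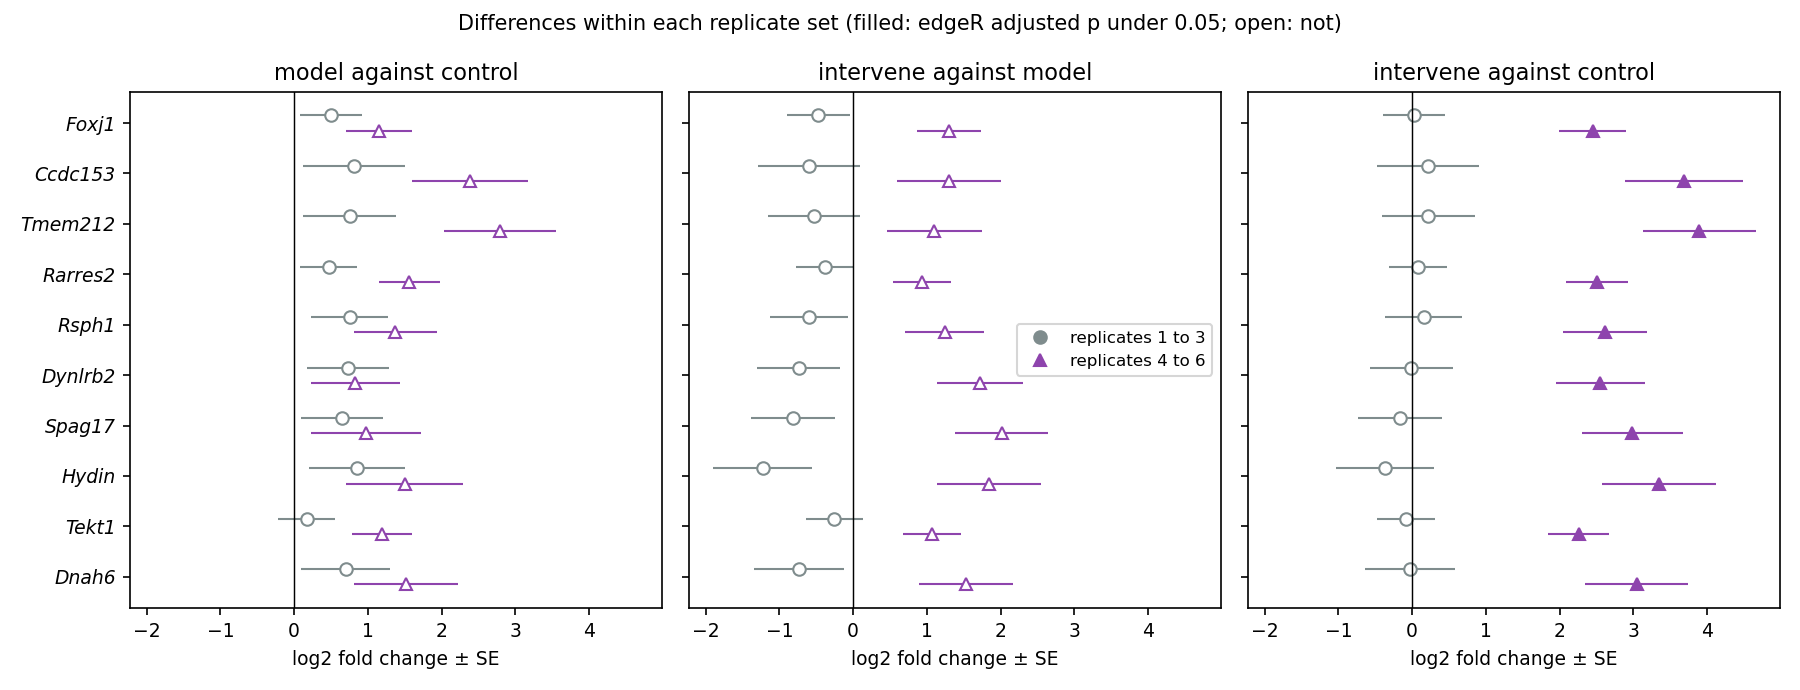
Log2 fold change of each of the 10 genes with its standard error, for the 3 comparisons, within replicates 1 to 3 (circles) and replicates 4 to 6 (triangles); filled symbols have an edgeR adjusted p under 0.05. Only intervene against control within replicates 4 to 6 has filled symbols, all 10 of them, between 2.26 and 3.90. In intervene against model the circles lie left of 0 and the triangles right of it.

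The 10 genes did not differ by the same factor between the control sets. Measured against the mean log2 CPM of the 10 genes, Ccdc153 stood at 1.11 ± 0.05 (SD, n = 3) in controls 1 to 3 and at -1.89, 0.72 and 0.46 in controls 4, 5 and 6, a mean of -0.23 ± 1.44 that became 0.59 without replicate 4. Tmem212 went from 0.16 ± 0.17 to -1.24 ± 0.67 (-0.91 without replicate 4), and Foxj1 from 1.93 ± 0.18 to 2.51 ± 0.47 (2.25 without replicate 4). The mean includes all 10 genes, so a fall in some raises the relative level of the others. In intervene 4 to 6, Ccdc153 was at 1.11, Tmem212 at -0.02 and Foxj1 at 2.01, close to their places in controls 1 to 3. For these same genes model 4 to 6 was likewise close, with Ccdc153 at 1.23, Tmem212 at 0.11 and Foxj1 at 2.08. This did not hold for every member. Rarres2 was at 1.21 in model 4 to 6, beside 0.60 in controls 1 to 3 and 1.20 in controls 4 to 6. Hydin was at -1.52, beside -0.84 and -1.34. Dynlrb2 went from 0.01 ± 0.13 in controls 1 to 3 to 0.84 ± 0.50 in controls 4 to 6 (0.55 without replicate 4). It was at 0.07 in model 4 to 6 and at 0.35 in intervene 4 to 6. These relative levels are a description and were not tested. Over all 18 libraries, Rsph1 tracked the other members most closely, with a root mean square difference of 0.295 in centred log2 CPM, and Ccdc153 least, at 0.816.

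Genes outside the 10 were ranked by how closely they followed the same pattern. Among 13633 genes with a mean of at least 1 CPM, the measure was the root mean square difference over 18 libraries between a gene's centred log2 CPM and the members' mean, and its median was 1.24. The 8 most alike were Odf3b at 0.190, Dnali1 at 0.234, Cfap161 at 0.239, Cfap70 at 0.266, Ubxn10 at 0.314, Prrg4 at 0.337, Mia at 0.341 and Lrrc23 at 0.341. All but Ubxn10 and Prrg4 were already in the lists of cilia genes described next. Odf3b averaged 4.97 CPM in controls 1 to 3, 0.941 in controls 4 to 6 and 7.21 in intervene 4 to 6. The genes were measured in the same libraries, so likeness is a description only.

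The wider motile cilia programme was read from 9 lists with 124 genes, of which 123 were matched and 120 tested. Over all 18 libraries none of the 120 was called by edgeR in any of the 3 comparisons (2 at an unadjusted p under 0.05 in model against control, 1 in intervene against model and 10 in intervene against control, where 1.68%, 2.88% and 8.41% of all genes had one). From control to intervene within libraries 4 to 6, 69 rose and 2 fell, with a median of 1.06 in log2, beside 0.00 for all genes and 14.7% of genes called higher. The axoneme lists held most of them. In the inner dynein arms 8 of 10 rose, with Dnah1 at 1.33 ± 0.26 (adjusted p = 0.0018) and Wdr78 at 0.78 ± 0.24 (adjusted p = 0.024). In the outer arms and their docking complex 7 of 10 rose, Dnaic1 among them at 1.02 ± 0.22 (adjusted p = 0.0034), while the light chain gene Dnal1 averaged 89.8 ± 7.13 CPM in control and 70.3 ± 9.44 in intervene (SD, n = 3) and was not called. In the radial spokes and nexin link 10 of 17 rose, Gas8 by only 0.43 ± 0.11 (adjusted p = 0.0076). In the central apparatus 7 of 10 rose, but not its most abundant members Cfap69 and Cfap74. Among proteins inside the doublets 10 of 14 rose, but not Cfap20.

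**Figure D3:**
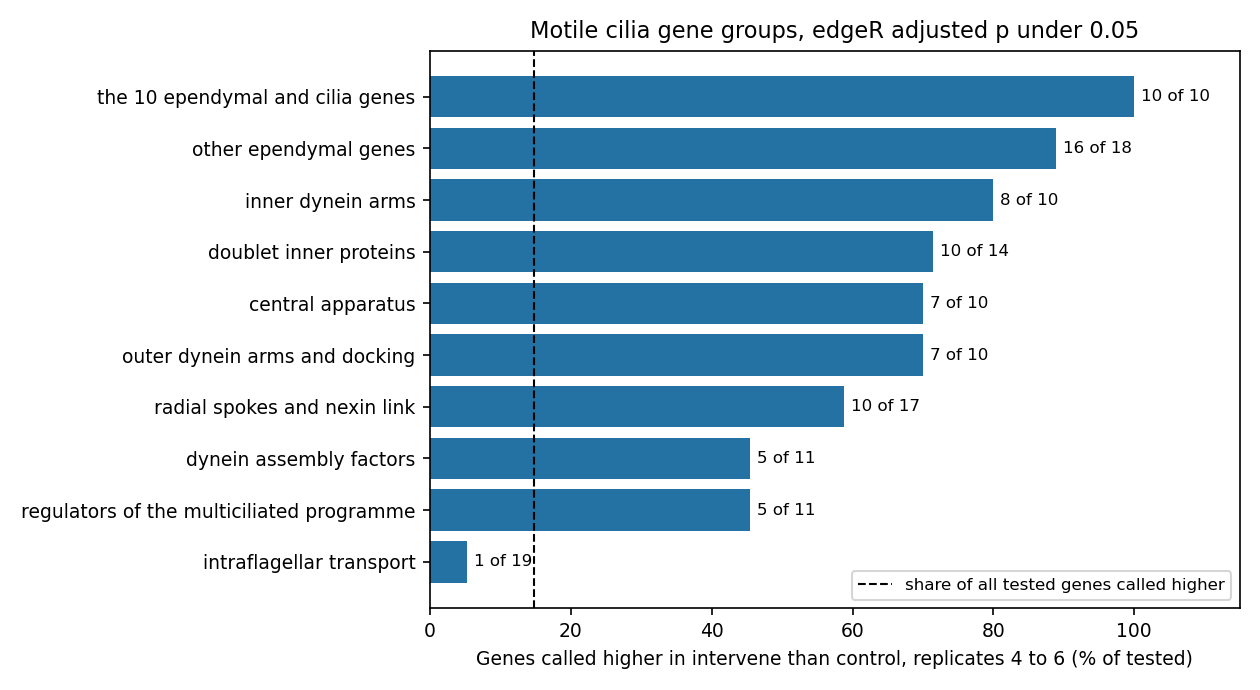
Share of each gene group called higher by edgeR (adjusted p under 0.05) in intervene than in control within replicates 4 to 6, with the counts at the bar ends and a dashed line at the 14.7% of all tested genes called higher. The bars run from 10 of 10 for the ependymal and cilia genes to 1 of 19 for intraflagellar transport, the one group below the line.

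Other lists of the programme act in primary cilia too, or before the axoneme is built. Intraflagellar transport, the cargo system that builds motile and primary cilia alike, had 1 gene of 19 higher, Dynlrb1 at 0.80 ± 0.16 (adjusted p = 0.0025), and 1 lower, Kif3b at -0.56 ± 0.16 (adjusted p = 0.017), with a list median of 0.03. Kif3a averaged 137 ± 12 CPM in controls 4 to 6 and 118 ± 18.3 CPM in intervene 4 to 6 and was not called. Among dynein assembly factors 5 of 11 rose, Spag1 by 0.46 ± 0.13 (adjusted p = 0.013), and Lrrc6 fell by 0.58 ± 0.20 (adjusted p = 0.041). Among regulators of the multiciliated programme 5 of 11 rose, namely Rfx2, Rfx4, Myb, Trp73 and E2f5; Rfx3 averaged 21.8 ± 2.60 CPM in control and 19.7 ± 1.19 CPM in intervene, and E2f4 26.0 ± 1.23 and 29.8 ± 7.17 CPM, and neither was called. Of 18 other ependymal genes 16 rose, with Cd24a at 2.25 ± 0.35 (adjusted p = 0.00059) and Vim, an intermediate filament gene also found in reactive glia, at 0.97 ± 0.20 (adjusted p = 0.0024).

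From model to intervene within libraries 4 to 6, 7 of the 120 rose and none fell, against 3.66% of genes called higher. They were Rfx2, Spef2, Fam183b, Mns1, Tekt2, 1700007K13Rik and Vim, named after their values were seen. Vim rose by 0.87 ± 0.20 (adjusted p = 0.020) and Fam183b by 1.64 ± 0.40 (adjusted p = 0.029). For Tekt2 and 1700007K13Rik, both of proteins inside the doublets, the difference between the sets also passed the test, at 1.95 ± 0.39 and 1.70 ± 0.32 in log2 (adjusted p of 0.041 and 0.038). That test is not independent, as the sets were noticed in the data. From control to model no gene of the lists was called within either set by edgeR, with 2 of 120 at an unadjusted p under 0.05 in libraries 1 to 3 and 32 in libraries 4 to 6, beside 5.83% and 10.2% of all genes.

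Markers of some neighbouring tissues moved with the 10 genes, while the summed levels of others ran the opposite way. The sum of 15 choroid plexus genes was 346 to 1161 CPM in controls 1 to 3, 224 to 246 in controls 4 to 6, 4154 to 6669.7 in model 1 to 3 and 248 to 335 in model 4 to 6. In intervene it was 389 to 12268 CPM in libraries 1 to 3 and 353 to 4948 in libraries 4 to 6. From control to intervene within libraries 4 to 6, 12 of these 15 were called higher and none lower, and Otx2, a transcription factor of the plexus, was at 0 in control replicates 4 and 5. Of all genes, 14.7% were called higher and 11.2% lower there. All 8 thalamic neuron genes and 5 of 8 habenula genes were called higher, and none of 8 cortical and hippocampal genes was called, although their sum in libraries 4 to 6 ran downwards, from 2067 to 2192 CPM in control to 1489 to 1657 in model and 759 to 1409 in intervene. The sum of 6 genes listed for tanycytes, another cell of the ventricle wall, also ran opposite to the 10 genes. It was 74.4 to 165 CPM in controls 1 to 3 and 181 to 234 in controls 4 to 6. In libraries 4 to 6 it was then 150 to 205 in model and 96.5 to 147 in intervene. The cortical and hippocampal sum ran in the same direction, and which cells the tanycyte genes came from was not tested. A sum is weighted to its most abundant genes, and the single genes were mixed. From control to intervene within libraries 4 to 6, 2 of the 6 tanycyte genes were called higher, as the 10 genes were, and 1 lower. Of the other lists, 3 of 5 astrocyte genes, 1 of 5 leptomeningeal genes, 1 of 6 subventricular zone genes and 0 of 6 striatal genes were called higher.

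Ttr, the transthyretin gene that marks choroid plexus, was 0.256, 0.590 and 0.399 CPM in controls 4 to 6, 92.7, 40.3 and 48.2 in model 4 to 6 and 101, 3947 and 3407 in intervene 4 to 6. The order of the groups in Ttr was thus that of the 10 genes. The sizes of the gaps were not alike. Intervene replicate 4 was far below intervene replicates 5 and 6 in Ttr, but its sum over the 10 genes was 97.4 CPM beside 169.9 and 104.8 in those, where model 4 to 6 had 37.4 to 59.9. Control replicate 2 had 23.5 CPM of Ttr beside 688 in control replicate 1, with 105 and 117 CPM of the 10 genes. In libraries 1 to 3 of intervene, replicate 2 was high in both, at 10069 and 198 CPM, while replicates 1 and 3 had 42.6 and 49.4 CPM of the 10 genes. The part of tissue content in the differences between groups was not tested.

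**Figure D4:**
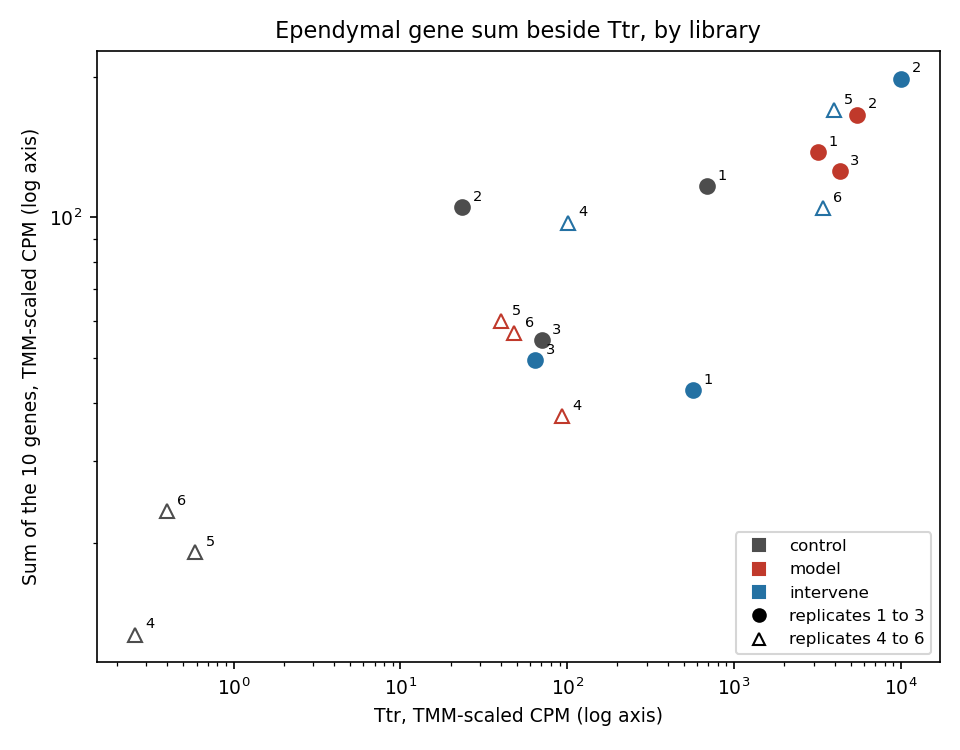
Sum of the 10 genes against Ttr in each of the 18 libraries, both in TMM-scaled CPM on log axes, coloured by group, with circles for replicates 1 to 3, triangles for replicates 4 to 6 and the replicate number beside each point. Controls 4 to 6 lie at the lower left, below 1 CPM of Ttr. Intervene replicate 2 lies at the upper right, and intervene replicate 4 and control replicate 2 have about 100 CPM of the 10 genes at about 100 CPM of Ttr or less.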

How the data were processed

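Per the labels' protocols, polyadenylated RNA was extracted with TRIzol and captured with oligo(dT) beads. The submitters' processing notes name HISAT2, featureCounts and the build GRCm39, without versions. The authors deposited raw counts and FPKM, which is the count over a gene length and the column total in 18117 of 18117 genes (relative tolerance 1e-06). Of the counts from 1 to 20, 82.1% were even, so a count need not be 1 fragment.

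Counts were tested in edgeR 4.0.16 (R 4.3.3) by the robust quasi-likelihood F test in 1 fit of 18 libraries, with a mean per group or per group and replicate set, TMM scaling after filterByExpr and Benjamini-Hochberg adjustment over 18452 genes (threshold 0.05, no fold minimum). Standard errors are the log2 fold change over the square root of F. Scripts were tested on simulated data. Alternatives were DESeq2 1.42.0, limma-voom 3.58.1, other scaling, no filter, log2(FPKM + 1), covariates and left-out libraries. Depth per library limits the precision of low genes.

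The members, lists and replicate sets were chosen with earlier results of these data known. The rule for names takes all members, the 2 most abundant genes of each list, the 8 genes most alike the members, and markers set beside a result, not all of which are reported here; other names were chosen after their values were seen. By symbol, or failing that by an older symbol or RefSeq synonym, 200 of 201 list genes were matched. No 2 libraries of a group repeated each other (smallest chi-square per degree of freedom 11.4, genes with at least 20 counts). Same-numbered libraries of control and model deviated together (correlation 0.18 to 0.63, over 0.1 in 6 of 6 pairs), while those of intervene did so in 5 of 6 pairs with model and 3 of 6 with control. The same-numbered library was the best match only for replicates 2, 4 and 5 between model and control. Between intervene and control it was so for replicates 5 and 6, and between intervene and model for none. The sets also follow replicate number, so pairing by number cannot be told from them here.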

Additional observations from a re-analysis of the deposited data

Results flagged for a closer look

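The difference between intervene and control was larger within replicates 4 to 6 than within replicates 1 to 3 for all 10 genes, by the interaction contrast of edgeR. Of all genes, 9.54% were called positive in that contrast. It is not an independent test, as the sets were noticed in the data. The change of the log2 difference was 2.42 for Foxj1, 3.47 for Ccdc153, 3.68 for Tmem212, 2.42 for Rarres2, 2.46 for Rsph1, 2.57 for Dynlrb2, 3.16 for Spag17, 3.72 for Hydin, 2.34 for Tekt1 and 3.08 for Dnah6 (adjusted p from 0.0103 to 0.0443). Without intervene replicate 2 these values were larger, 3.05 for Tekt1 to 5.11 for Hydin, and without intervene replicate 5 that of Dnah6 was 2.46. Of the 10 genes, 3 were called without control replicate 4 and 4 without intervene replicate 5.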

How the results depend on the processing

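Counts of genes called are by edgeR out of 10. Within replicates 4 to 6, model against control gave 2 with DESeq2 (1.07% of genes called higher) and 1 with only those libraries (0.223%). There, intervene against model gave 2 with DESeq2 (5.99%) and 8 with only those libraries (5.38%). The difference between sets gave 1 for intervene against model with DESeq2, and 0 to 9 with a library left out; for intervene against control it gave 4 with no filter on low counts, 8 with library totals and 3 to 10 with a library left out. The cause was not tested. For most other settings the share of all genes called is not given here. A change in those counts therefore cannot be told from a change in how many genes a setting calls. With the replicate number as a block the counts were 0 in 8 of the 9 comparisons over all libraries or within a set and 10 for intervene against control within replicates 4 to 6. For the difference between sets, fitted with the block after seeing the data, they were 0, 0 and 10, so the block changed no call. For intervene against control within replicates 4 to 6 the adjusted p ran from 2.69e-09 to 0.0300 over the other settings and from 0.00184 to 0.0377 with a library left out. The gaps between sets remained at 10, 10 and 0 genes in control, model and intervene under library totals and deposited FPKM, both added after seeing the data. With TMM scaling 26.6%, 19.4% and 15.8% of all genes had such a gap.

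Signs turned only in values that no test called. Hydin in intervene against model was 0.044 with limma-voom, 0.48 with the replicate block and 0.59 with the set as covariate. Within replicates 1 to 3, intervene against control was -0.24 for Foxj1, -0.29 for Ccdc153, -0.37 for Tmem212, -0.17 for Rarres2 and -0.34 for Rsph1 with limma-voom, -0.13, -0.12, -0.14, -0.032 and -0.14 with the block, and -0.014 for Foxj1 with no filter. With a library left out it ran from -0.87 to 0.33 for Foxj1, -1.12 to 0.60 for Ccdc153, -1.18 to 0.63 for Tmem212, -0.66 to 0.39 for Rarres2, -1.09 to 0.56 for Rsph1, -1.34 to 0.38 for Dynlrb2, -1.12 to 0.29 for Spag17, -1.76 to 0.082 for Hydin, -0.79 to 0.29 for Tekt1 and -1.30 to 0.37 for Dnah6. Likewise intervene against model over all libraries ran from -0.23 to 0.44 for Ccdc153, -0.37 to 0.31 for Tmem212, -0.083 to 0.44 for Rsph1, -0.17 to 0.49 for Spag17, -0.46 to 0.10 for Hydin and -0.31 to 0.32 for Dnah6, and within replicates 1 to 3 from -0.96 to 0.12 for Tekt1. The change between sets in model against control ran from -0.20 to 0.40 for Dynlrb2 and -0.13 to 0.73 for Spag17. Spag17, with 2 to 134 counts per library, is limited most by depth.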
